A study of Mus musculus with 8 samples.

Results

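Phase II conjugation enzymes were followed as 4 gene families in mouse liver with and without hepatocyte miR-33: the UDP-glucuronosyltransferases and related transferases (UGT1A, UGT2 and UGT3A), the cytosolic sulfotransferases (SULT), the cytosolic glutathione S-transferases (GST) and the microsomal glutathione S-transferases (MGST). Members were chosen by the start of the gene symbol alone, which gave 60 of the 17810 genes listed: 21 UGT, 15 SULT, 21 GST and 3 MGST genes. RNA-Seq was run on 4 WT and 4 HKO samples of whole liver, and the value for each gene is an estimated read count. HKO mice carried loxP-flanked miR-33 and a Cre recombinase driven by the albumin promoter, labelled AlbCRE, which directs the deletion to hepatocytes. Whether miR-33 was also lost in other liver cells, such as cholangiocytes, was not measured here. WT mice were littermates. Both groups received CD-HFD, a fatty diet that lacks choline and brings on steatosis. It began at 8 weeks of age and lasted 3 months, and the mice were 5 months old at collection. Per the methods of the study, its mice were male and were fasted before collection. No chow-fed group was analysed here, and miR-33 itself was not measured in this table, so the deletion was not checked here.

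Conjugation attaches a polar group to drugs, steroids, bilirubin, bile acids and the products of oxidation so that they can leave the cell in bile or blood. UGT enzymes sit in the endoplasmic reticulum and use UDP-glucuronic acid or another UDP-sugar, SULT enzymes are cytosolic and take sulfate from PAPS, and GST and MGST enzymes join glutathione to electrophiles. The liver holds high levels of all these enzymes, and many of their genes stand in clusters of close copies, several of which are known to differ between the sexes or to respond to receptors for foreign compounds.

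The libraries held 12174339 to 18735785 counts, and levels are given as CPM, counts brought to a common library size, after TMM scaling, which also corrects for composition. A count of 3 corresponded to 0.149 to 0.255 CPM. One liver, HKO replicate 3, stood apart. It was more than 5-fold above the next liver for 17 of the 12395 genes tested, of which 12 were major urinary protein (Mup) genes and 2 were conjugation genes. It was the lowest liver for 22 of the 47 conjugation genes tested and the highest for 8, so results are also given without it. HKO replicate 2 was more than 5-fold above the next liver for 6 genes, Cd24a, Ehf, Epcam, Plet1, Prom1 and Tspan8, and its summed level of 6 cholangiocyte markers was 111.6 CPM, against 40.7 to 51.2 CPM in WT livers. Hepatocyte markers summed to 76725 to 109823 CPM in WT and 66397 to 119211 CPM in HKO livers, lowest in HKO replicate 3. Of the 6, 3 (Hnf4a, Serpina1c and Tat) were called higher in HKO, where 1.66% of all genes were. The call of Serpina1c was kept without HKO replicate 1, HKO replicate 2 or WT replicate 4 and lost without any other liver, and that of Tat was lost without WT replicate 1. None of the markers of any cell type was at 0 in all livers. In whole liver, fewer cells of a type and less RNA per cell cannot be told apart.

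Of the 60 conjugation genes, 47 passed the expression filter and 13 did not. The 13 were Gsto2, Mgst2, Sult2a1, Sult2a2, Sult2a3, Sult2b1, Sult3a1, Sult3a2, Sult6b1, Ugt1a2, Ugt1a7c, Ugt2a1 and Ugt2a2. Ugt1a7c reached 4.98 CPM in HKO replicate 2, and no other of the 13 exceeded 0.579 CPM in any liver. In all, 9 of the 13 stayed at or under 3 counts in every liver. Sult2a1 and Sult3a1, which are known for their expression in female mouse liver, were among the 13, with at most 0.0827 and 0.579 CPM.

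Per kilobase of exon, Mgst1 was the most abundant member at a mean of 2139 CPM per kb over the 8 livers. Ugt2b5 followed at 664, Ugt2b36 at 523, Gstm1 at 520, Gsta3 at 474 and Sult2a8 at 472 CPM per kb. The lowest level among the genes tested was 0.614 CPM per kb, for Ugt1a8. All 60 members together took 18535 ± 1734 CPM over WT livers (SD, n = 4) and 18455 ± 378 CPM over HKO livers (SD, n = 4), a ratio of 0.996, so the summed level differed by less than the spread between livers.

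Between HKO and WT, 5 of 47 genes differed by edgeR (quasi-likelihood test, adjusted p under 0.05 after the Benjamini-Hochberg correction across the whole table), where 5.03% of all genes did. All 5 had a fold change above 1.5, which 2.96% of all genes combined with such a p. Sult1d1 and Ugt2b1 were higher in HKO, where 1.66% of all genes were, and Gsta1, Gstm4 and Ugt1a9 were lower, where 3.37% were. The log2 fold change of HKO over WT (log2FC) was negative for 33 and positive for 14 of the 47, with a median of -0.17, against a median of 0.01 over all genes tested. Values of the genotypes did not overlap for 2 members higher and 6 lower in HKO, against 5.36% and 7.21% of all genes. At an unadjusted p under 0.05 there were 18 members, where 19.8% of all genes were. Without HKO replicate 3, the count was 6 of 47, where 3.78% of all genes were called, with 2 higher (1.38% of all genes) and 4 lower (2.4% of all genes), and the median was -0.11. DESeq2 called 10 members, where it called 7.67% of all genes. These were the 5 above with Gstm1, Gstm3, Mgst3, Sult2a8 and Ugt2a3. limma-voom called 7, the 5 with Gstm3 and Sult2a8, where it called 4.86% of all genes.

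**Figure D1:**
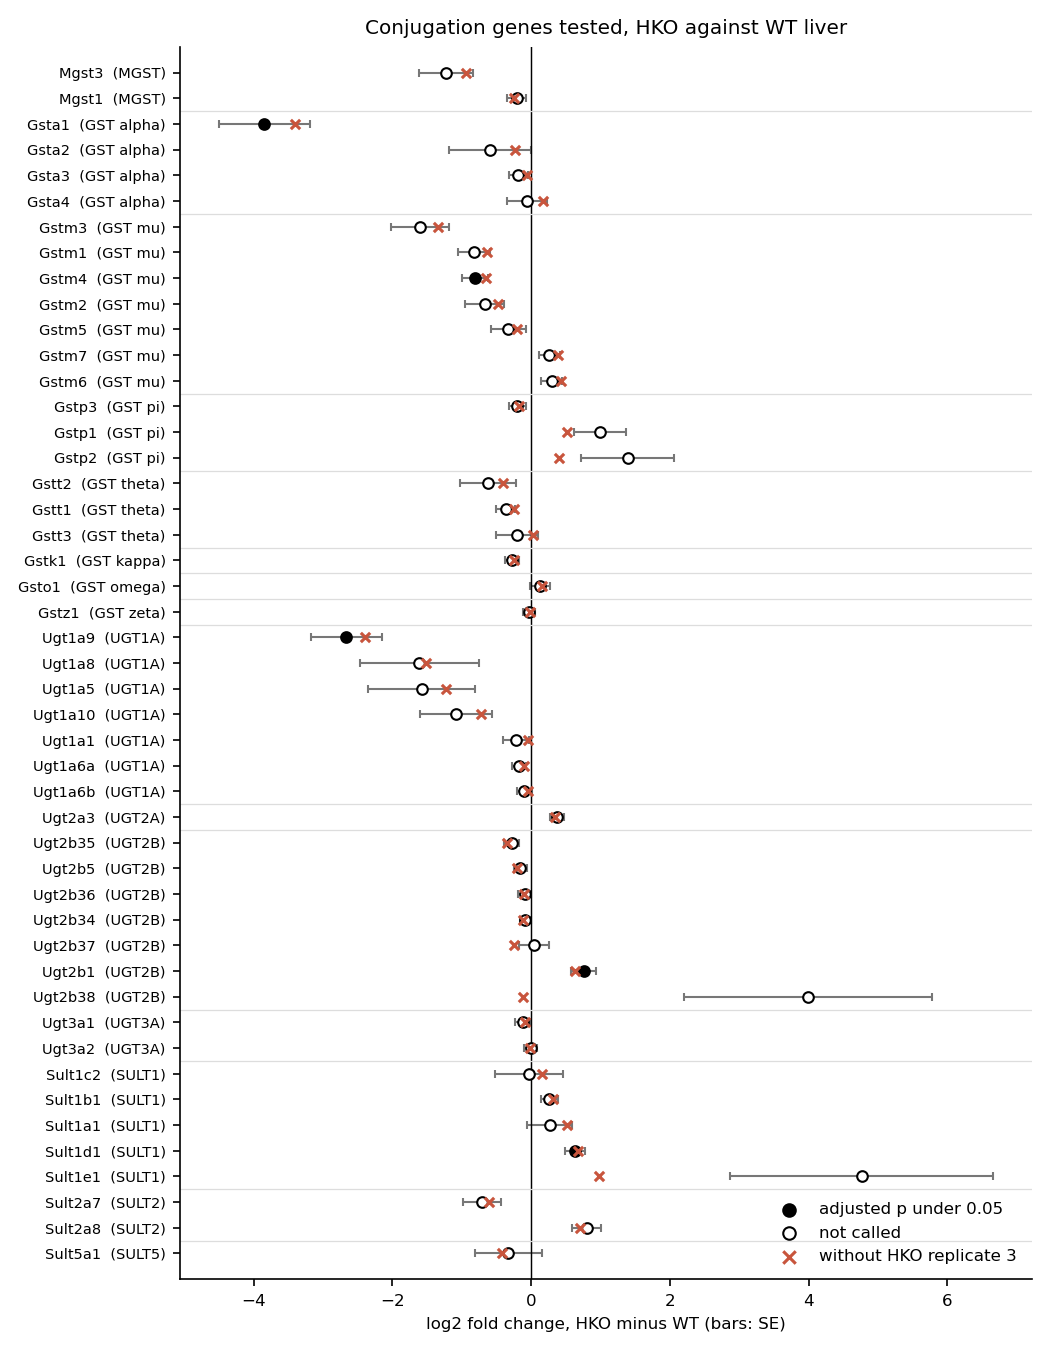
Log2FC (HKO minus WT) of the 47 conjugation genes tested, grouped by subfamily, with bars of 1 SE. Filled points are the 5 genes called at an adjusted p under 0.05, open points the other 42, and red crosses the value without HKO replicate 3, which lies far from the point for Sult1e1 (0.98 against 4.77) and Ugt2b38 (-0.12 against 3.99).

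Among the glutathione transferases, the alpha and mu classes held the genes that fell. Gsta1 (chr9:78230669-78242683, plus strand), a transferase that also reduces lipid hydroperoxides, was at 24.6, 21.0, 11.9 and 13.5 CPM in WT replicates 1 to 4 and at 2.80, 1.15, 0.175 and 0.760 CPM in HKO replicates 1 to 4. Every HKO liver lay under every WT liver, and HKO replicate 3 was at about 3 counts. Its log2FC was -3.84 (SE 0.65), with an adjusted p of 0.0233 in edgeR. Without HKO replicate 3 it was -3.41 with an adjusted p of 0.00944. The call was lost when HKO replicate 2, HKO replicate 4, WT replicate 1 or WT replicate 2 was left out, with adjusted p-values up to 0.0747 in edgeR.

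Gsta1 has close copies, so the deposited quantification may have split reads between them. Of its 75-base words 84.7% occur in transcripts of another gene, 33.8% in Gsta2 and 69.3% in Gm3776, a gene that lies between the 2 and is outside the families by its symbol (chr9:78257129-78269166, plus strand). The coding sequences of Gsta1 and Gsta2, of 669 and 666 bases, are 97.6% identical and share a stretch of 196 bases without a difference. The stretch of 75 coding bases (434 to 508, counted from the A of the start codon, GENCODE M21) in which the genes differ most shows how little separates them. Capitals mark the bases that differ.
Gsta1: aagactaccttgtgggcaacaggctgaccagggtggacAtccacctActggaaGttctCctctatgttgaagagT
Gsta2: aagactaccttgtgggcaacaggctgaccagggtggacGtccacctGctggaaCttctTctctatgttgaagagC
The 5 differing bases are the positions at which a read could be assigned to one gene rather than the other in this window. The summed level of the pair does not depend on how reads are divided between these 2 genes, though it does on the share given to Gm3776. It was 41.7 ± 3.65 CPM over WT livers (SD, n = 4) and 17.2 ± 10.3 CPM over HKO livers (SD, n = 4), with a range of 38.5 to 47.0 CPM against 2.80 to 27.0 CPM, so that the genotypes did not overlap. Gm3776 was at 21.0, 12.7, 19.2 and 18.2 CPM in WT and 7.55, 4.08, 0.170 and 1.45 CPM in HKO livers, again with every HKO liver under every WT liver, at a log2FC of -2.42 (SE 0.82) with an adjusted p of 0.171 in edgeR. Summed over Gsta1, Gsta2, Gm3776 and the near-silent copy Gm10639, the level was 59.5 ± 6.23 CPM over WT livers (SD, n = 4) and 20.6 ± 12.2 CPM over HKO livers (SD, n = 4), a ratio of 0.346 that was 0.444 without HKO replicate 3, with no overlap. Gsta2 alone was at 22.3, 19.4, 26.6 and 27.5 CPM in WT and 15.1, 25.8, 2.63 and 20.3 CPM in HKO livers. Its groups overlapped, with a log2FC of -0.59 (SE 0.60) and an adjusted p of 0.659 in edgeR.

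The most abundant alpha-class gene did not pass the test. Gsta3 was at 2018 to 2352 CPM in WT and at 1416 to 2167 CPM in HKO livers, with HKO replicate 3 the lowest, and its log2FC was -0.18 (SE 0.13, adjusted p 0.50 in edgeR). Gsta4, a transferase for lipid-derived alkenals, was at -0.06 and was at 0.17 without HKO replicate 3. Gsta3 made up 96.6% of alpha-class CPM, and the class sum was 0.873 of WT, or 0.953 without HKO replicate 3, with overlapping livers.

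The 7 mu-class genes lie in one cluster on chr3:107895854-108044859, in the order Gstm5, Gstm7, Gstm6, Gstm3, Gstm2, Gstm1 and Gstm4. The mu class conjugates a broad range of electrophiles, among them epoxides. Gstm4 (chr3:108040408-108044859, minus strand) was at 36.4, 33.8, 27.0 and 25.6 CPM in WT and 20.3, 20.6, 11.5 and 17.6 CPM in HKO livers. The genotypes did not overlap. Its log2FC was -0.81 (SE 0.19), with an adjusted p of 0.0363 in edgeR and of 0.0291 without HKO replicate 3, where the change was -0.65. The call was lost without HKO replicate 4 or without WT replicate 1, 2 or 3, with adjusted p-values up to 0.115 in edgeR. None of the 75-base words of Gstm4 occurs in another gene.

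Gstm1, the main mu-class gene of these livers, was at 1158, 1089, 885 and 787 CPM in WT and 667, 603, 316 and 626 CPM in HKO livers. All HKO livers lay under all WT livers, yet the adjusted p was 0.0875 in edgeR at a log2FC of -0.83 (SE 0.23). Without HKO replicate 3 the change was -0.63 and the adjusted p 0.0285, and DESeq2 called it with all livers (adjusted p 0.00208). Gstm3 was at 61.2, 85.1, 48.9 and 45.7 CPM in WT and 32.7, 17.7, 8.27 and 20.6 CPM in HKO livers, again with no overlap. Its log2FC was -1.60 (SE 0.42), with an adjusted p of 0.0919 in edgeR, while limma-voom (adjusted p 0.0196) and DESeq2 (adjusted p 0.00437) called it. Of its 75-base words 21.6% are shared with other genes.

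Along the cluster, the 4 neighbouring genes Gstm3, Gstm2, Gstm1 and Gstm4 had log2FC values of -1.60, -0.67, -0.83 and -0.81. Gstm6 and Gstm7 on the other side were at 0.30 and 0.26 and Gstm5 at -0.33, none with an adjusted p under 0.05. Without HKO replicate 3, Gstm6 had an adjusted p of 0.0496 in edgeR at a log2FC of 0.44. The summed mu-class level was 1220 ± 206 CPM over WT livers (SD, n = 4) and 734 ± 204 CPM over HKO livers (SD, n = 4), a ratio of 0.602, or 0.685 without HKO replicate 3, and did not overlap between genotypes.

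The pi class had the higher mean in HKO, without a call, and HKO replicate 3 decided the size of the difference. Gstp1, a transferase known for its higher level in male mouse liver, was at 317, 303, 280 and 426 CPM in WT and 557, 393, 1219 and 474 CPM in HKO livers. HKO replicate 2 lay under WT replicate 4, so the groups overlapped. The log2FC was 0.99 (SE 0.38) with an adjusted p of 0.206 in edgeR, and 0.52 with an adjusted p of 0.119 without HKO replicate 3. Gstp2, which is close to silent here, reached 7.92 CPM in HKO replicate 3 and 0.749 to 2.09 CPM elsewhere.

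The 2 genes lie side by side, with Gstp1 at chr19:4035411-4037912 and Gstp2 at chr19:4040288-4042221, both on the minus strand. Their coding sequences of 630 bases are 98.1% identical, so part of the Gstp2 value could be reads of Gstp1. The first 75 coding bases hold 6 of the differences between them, shown in capitals.
Gstp1: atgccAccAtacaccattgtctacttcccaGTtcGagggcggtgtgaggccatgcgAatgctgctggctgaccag
Gstp2: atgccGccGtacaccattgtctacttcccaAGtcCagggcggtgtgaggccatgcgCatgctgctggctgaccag
Summed over the pair, the level was 333 ± 65.2 CPM over WT livers (SD, n = 4) and 664 ± 381 CPM over HKO livers (SD, n = 4), a ratio of 1.99 that was 1.43 without HKO replicate 3. Gstp3 shares no 75-base word with another gene and was at 10.1 to 14.3 CPM in WT and 9.99 to 11.1 CPM in HKO livers, with a log2FC of -0.20 (adjusted p 0.441 in edgeR).

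No gene of the remaining glutathione transferase classes was called. Gstt1, of the theta class that acts on small halogenated compounds, was at 130 to 171 CPM in WT and 91.8 to 142.9 CPM in HKO livers, with a log2FC of -0.37 (SE 0.14, adjusted p 0.162 in edgeR). Gstk1, the kappa-class enzyme of mitochondria and peroxisomes, was at -0.27 (adjusted p 0.140) and Gsto1, which reduces dehydroascorbate, at 0.13 (adjusted p 0.692). Gstz1, the maleylacetoacetate isomerase of tyrosine breakdown, was at 779 to 892 CPM in WT and 770 to 843 CPM in HKO livers, with a log2FC of -0.03 (SE 0.08).

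Of the membrane-bound enzymes, Mgst1 was the most abundant conjugation gene and was at 3603 to 5473 CPM in WT and 3534 to 4321 CPM in HKO livers, with overlap and a log2FC of -0.21 (SE 0.13, adjusted p 0.434 in edgeR). Mgst3, which handles leukotriene and lipid peroxide substrates, was at 8.43, 11.7, 6.27 and 6.90 CPM in WT and 3.04, 5.94, 1.35 and 4.001 CPM in HKO livers. The groups did not overlap, but the log2FC of -1.23 (SE 0.39) did not pass the test, with an adjusted p of 0.121 in edgeR and of 0.0166 in DESeq2.

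**Figure D2:**
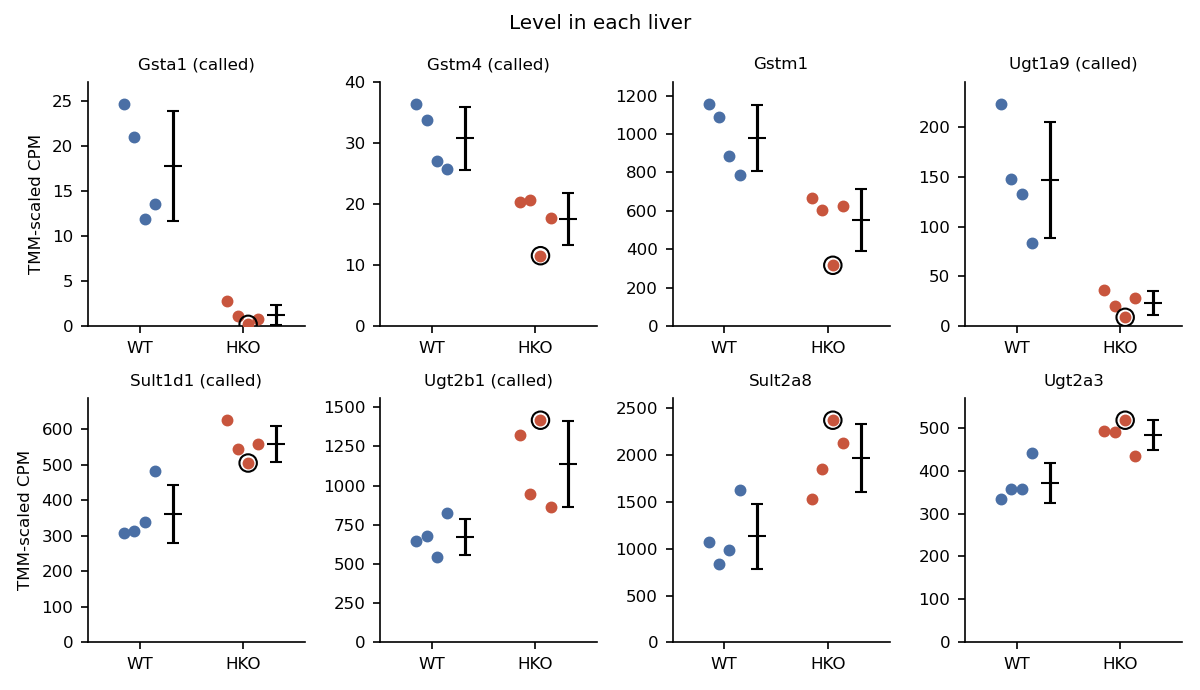
TMM-scaled CPM in each of 4 WT (blue) and 4 HKO (red) livers for 8 conjugation genes, on linear axes that start at 0, with mean and SD to the right of each group and HKO replicate 3 circled. Gsta1, Gstm4, Gstm1 and Ugt1a9 lie lower in every HKO liver than in any WT liver, Sult1d1 and Ugt2b1 lie higher, and Sult2a8 and Ugt2a3 overlap.

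The UGT1A genes on chr1:88055411-88220002 each have their own first exon and share the remaining exons, so that 51.2% to 74.8% of the 75-base words of the 7 tested genes occur in another gene, and the value of a single gene depends on how shared reads were divided. Ugt1a9 (chr1:88070779-88220002, plus strand) fell. It was at 224, 147, 132 and 83.5 CPM in WT and 35.8, 19.7, 8.66 and 28.3 CPM in HKO livers, and the groups did not overlap. Its log2FC was -2.67 (SE 0.51) with an adjusted p of 0.0374 in edgeR, and -2.39 with an adjusted p of 0.0347 without HKO replicate 3. The call held in 2 of 8 fits that left out a liver, those without HKO replicate 3 and without WT replicate 4, and was lost without each of the other 6 livers, with adjusted p-values up to 0.105 in edgeR.

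Ugt1a1, the bilirubin transferase and the most abundant UGT1A gene, was at 569 to 727 CPM in WT livers and at 586, 630, 339 and 657 CPM in HKO livers. Only HKO replicate 3 lay under the WT range. The log2FC was -0.21 (SE 0.19, adjusted p 0.596 in edgeR), and -0.04 without HKO replicate 3. Ugt1a6a and Ugt1a6b, which act on small phenols, were at -0.17 and -0.10. Ugt1a5 varied widely within WT, from 54.4 CPM in replicate 4 to 260 CPM in replicate 1, and was at 10.04 to 86.8 CPM in HKO livers, with a log2FC of -1.58 (SE 0.77, adjusted p 0.331 in edgeR).

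All 7 UGT1A genes tested had a negative log2FC, where 48.4% of all genes did. Since these genes share reads, their signs are not separate observations. The sum over the 9 listed UGT1A genes, which does not depend on how reads are divided among them, was 1559 ± 147 CPM over WT livers (SD, n = 4) and 1203 ± 226 CPM over HKO livers (SD, n = 4). The 4 HKO livers lay between 865 and 1345 CPM and the 4 WT livers between 1404 and 1721 CPM, without overlap, a ratio of 0.772 that was 0.844 without HKO replicate 3.

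**Figure D3:**
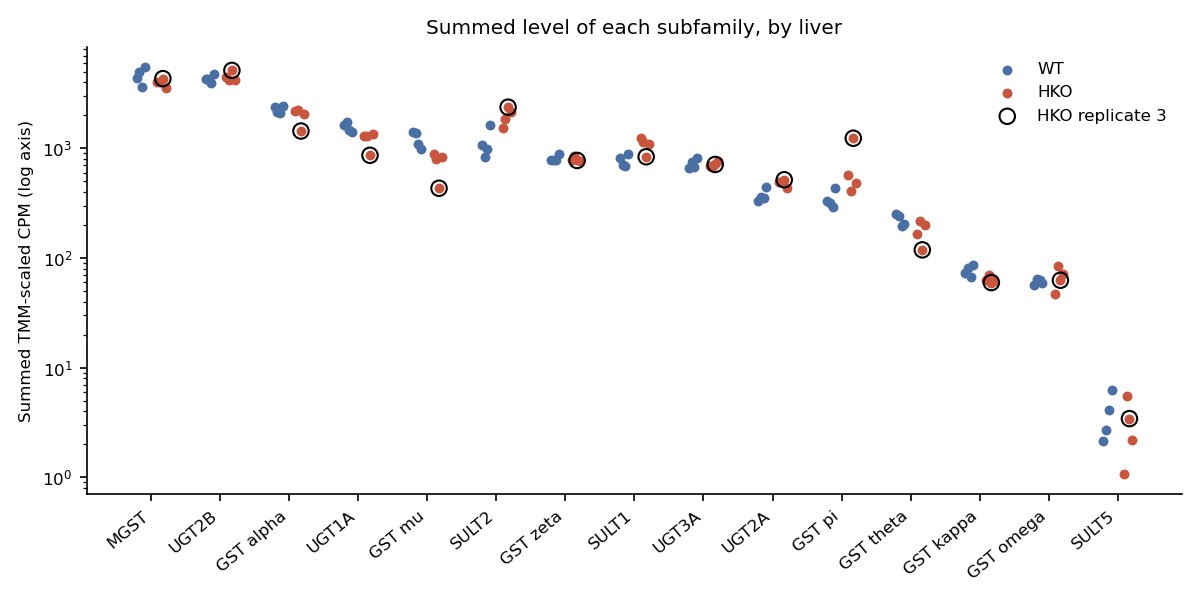
Summed TMM-scaled CPM of each subfamily other than SULT3 and SULT6 in each WT (blue) and HKO (red) liver on a log axis, with HKO replicate 3 circled. The GST mu and UGT1A sums of HKO livers lie under those of WT livers (ratios 0.602 and 0.772), the SULT2 and GST pi sums are higher on average (1.74 and 1.95) with overlap, and the UGT2B sum is near equal (1.04, or 0.995 without HKO replicate 3).

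The UGT2 genes form a second cluster, on chr5:86889770-87490871, whose products glucuronidate steroids, bile acids and drugs. Ugt2b1 (chr5:86916639-86926503, minus strand) rose. It was at 645, 680, 543 and 824 CPM in WT and 1324, 944, 1416 and 864 CPM in HKO livers. The lowest HKO liver lay just above the highest WT liver. Its log2FC was 0.76 (SE 0.18) with an adjusted p of 0.0393 in edgeR, and without HKO replicate 3 it was 0.63 with an adjusted p of 0.0791, so that the call rested on that liver. It was also lost without HKO replicate 1 or WT replicate 1, 2 or 3, with adjusted p-values up to 0.115 in edgeR.

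Ugt2a3, a transferase for bile acids, was at 334, 358, 356 and 440 CPM in WT and 491, 489, 517 and 433 CPM in HKO livers. HKO replicate 4 lay under WT replicate 4, and the log2FC of 0.38 (SE 0.10) had an adjusted p of 0.0530 in edgeR. The adjusted p was 0.0150 without WT replicate 4, and 0.00677 in DESeq2. The abundant Ugt2b5, Ugt2b36 and Ugt2b34 were at log2FC values of -0.16, -0.09 and -0.09, and Ugt2b35 was at -0.28 (adjusted p 0.172). The UGT2B sum was 4328 ± 349 CPM over WT livers (SD, n = 4) and 4514 ± 436 CPM over HKO livers (SD, n = 4). The difference, 186 CPM higher in HKO, was within the spread between livers and took the other sign without HKO replicate 3 (-20.1 CPM) and with total count scaling (-77.1 CPM).

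Ugt2b38 was high in 1 liver. It was at 2.11, 2.17, 1.96 and 2.75 CPM in WT and 2.14, 0.909, 136 and 3.17 CPM in HKO livers, with HKO replicate 3 the only liver above 3.17 CPM. Its log2FC was 3.99 (SE 1.79) with an adjusted p of 0.293 in edgeR, and -0.12 without HKO replicate 3. Ugt2b38 is 97.0% identical to Ugt2b5 over 1590 coding bases, and 28.01% of its 75-base words are shared. The stretch in which they differ most, coding bases 1452 to 1526, holds 10 differing bases, in capitals.
Ugt2b38: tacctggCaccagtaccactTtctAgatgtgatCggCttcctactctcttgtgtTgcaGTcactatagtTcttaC
Ugt2b5: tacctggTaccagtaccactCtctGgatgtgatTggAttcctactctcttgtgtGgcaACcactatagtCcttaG
Ugt2b5 in HKO replicate 3 was at 1286 CPM, within the WT range of 1177 to 1411 CPM. The UGT3A genes, which use other UDP-sugars, were not called, with Ugt3a1 at -0.12 and Ugt3a2 at -0.01 on the log2 scale and adjusted p-values of 0.599 and 0.978 in edgeR.

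The sulfotransferases were the family with the higher sum in HKO. Over all 15 SULT genes, the level was 1918 ± 436 CPM over WT livers (SD, n = 4) and 3053 ± 217 CPM over HKO livers (SD, n = 4), a ratio of 1.59, with no overlap between genotypes and a ratio of 1.56 without HKO replicate 3. Taken apart, the subfamily sums overlapped between genotypes. The SULT1 sum was 698 to 898 CPM in WT and 838 to 1240 CPM in HKO livers. The SULT2 sum was 836 to 1629 CPM in WT and 1528 to 2373 CPM in HKO livers. Sult2a8 made up 62.4% of the sum over all SULT genes and Sult1d1 made up 49.4% of the CPM of the SULT1 genes.

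Sult1d1 (chr5:87554650-87569006, minus strand), a sulfotransferase for catecholamines and eicosanoids, was at 308, 313, 338 and 481 CPM in WT and 625, 543, 504 and 559 CPM in HKO livers. Every HKO liver lay above every WT liver, WT replicate 4 being the closest. The log2FC was 0.63 (SE 0.14) with an adjusted p of 0.0264 in edgeR, and 0.68 with an adjusted p of 0.0364 without HKO replicate 3. The call was kept without HKO replicate 3 and without WT replicate 4 and lost without any other liver, with adjusted p-values up to 0.0931 in edgeR. None of its 75-base words occurs in another gene.

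Sult2a8, a bile acid sulfotransferase of mouse liver, was at 1075, 834, 991 and 1625 CPM in WT and 1526, 1846, 2372 and 2131 CPM in HKO livers. WT replicate 4 lay above HKO replicate 1. Its log2FC was 0.80 (SE 0.21) with an adjusted p of 0.0616 in edgeR. It was called by limma-voom (adjusted p 0.0412) and by DESeq2 (adjusted p 0.00115), and in edgeR without HKO replicate 1 (adjusted p 0.0496) or without WT replicate 4 (adjusted p 0.00637).

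Sult1e1, the estrogen sulfotransferase, was at 0.248, 0.489, 0.696 and 1.45 CPM in WT and 2.50, 1.16, 75.8 and 0.596 CPM in HKO livers. Without HKO replicate 3 the groups overlapped, all at or under 2.50 CPM. The log2FC of 4.77 (SE 1.90) had an adjusted p of 0.240 in edgeR and was 0.98, with an adjusted p of 0.419, without that liver. Sult1a1, the phenol sulfotransferase, was at 283 to 432 CPM in WT livers and at 509, 480, 177 and 452 CPM in HKO livers, so that HKO replicate 3 was the lowest of all 8. Its log2FC was 0.27 (adjusted p 0.722 in edgeR), and 0.52 (adjusted p 0.0619) without that liver. Sult1b1, which takes thyroid hormone, was at 0.26 (adjusted p 0.246) and Sult5a1, at 1.08 to 6.24 CPM over all livers, at -0.33 (adjusted p 0.774).

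**Figure D4:**
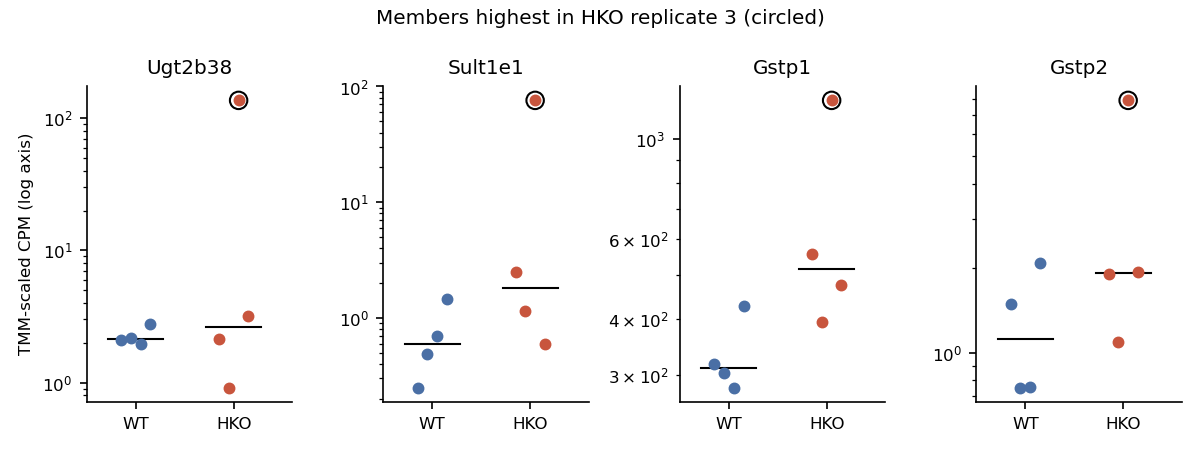
TMM-scaled CPM on a log axis for 4 conjugation genes that were highest in HKO replicate 3 (circled), with a line at the median of each group of 4 livers. Ugt2b38 stood at 136 CPM and Sult1e1 at 75.8 CPM in that liver, against at most 3.17 and 2.50 CPM in the other 7, and Gstp1 and Gstp2 at 1219 and 7.92 CPM.

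The genes that supply the donor molecules were read from lists of the pathway. Of 9 cofactor supply genes tested, Ugdh fell, where 3.37% of all genes did, and 8 did not pass the test. Ugdh, which makes UDP-glucuronic acid from UDP-glucose, was at 354, 300, 277 and 321 CPM in WT and 178, 178, 142.6 and 150 CPM in HKO livers. Its log2FC was -0.95 (SE 0.10, adjusted p 0.000875 in edgeR), and the call held whichever liver was left out. Papss2, the main PAPS synthase of these livers, was at 0.24 (SE 0.10, adjusted p 0.186). Ugp2, the enzyme before Ugdh, was at 0.07, and Slc35d1, a carrier of UDP-glucuronic acid into the endoplasmic reticulum, at -0.13.

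Of 12 glutathione cycle genes tested, Gclc, Gss and Gpx4 fell, where 3.37% of all genes did, and 9 did not pass the test. Gclc, the catalytic subunit of the first step of glutathione synthesis, was at 421 to 482 CPM in WT and 247 to 375 CPM in HKO livers, with a log2FC of -0.53 (SE 0.11, adjusted p 0.0236 in edgeR). Its call was lost without HKO replicate 2, WT replicate 1 or WT replicate 2. Gss, the second enzyme of that synthesis, was at 36.4 to 44.1 CPM in WT and 27.1 to 30.4 CPM in HKO livers, a log2FC of -0.46 (SE 0.09, adjusted p 0.0136 in edgeR), and its call was lost without WT replicate 2.

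Gpx4, the glutathione peroxidase of membrane lipids, had a log2FC of -0.73 (SE 0.12, adjusted p 0.00669 in edgeR). The cysteine-producing Cth and Cbs were at 0.60 and 0.50, with adjusted p-values of 0.0510 and 0.0517 in edgeR and no overlap between genotypes. The modifier subunit Gclm was at -0.06.

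Of 16 tested genes on a list for other conjugation, 1 was called, where 5.03% of all genes were. It was Ephx1, the microsomal epoxide hydrolase, which is not itself a conjugating enzyme. Ephx1 fell from 278 to 381 CPM in WT to 144 to 190 CPM in HKO livers. Its log2FC was -0.97 (SE 0.11, adjusted p 0.00126 in edgeR), and it was called whichever liver was left out. None of 12 conjugate transport genes was called by edgeR, where 5.03% of all genes were. At an unadjusted p under 0.05 in edgeR there were 6, where 19.8% of all genes were. DESeq2 called 4 and limma-voom 2, where they called 7.67% and 4.86% of all genes. Of 18 tested genes known as targets of Nrf2, the factor for electrophile stress, 5 fell, where 3.37% of all genes did, and none rose. These were Gclc and Ephx1 together with Srxn1 (-1.02, SE 0.14), Tkt (-0.80, SE 0.14) and Taldo1 (-0.46, SE 0.10), with adjusted p-values of 0.00333, 0.00999 and 0.0213 in edgeR. Srxn1 reduces oxidised peroxiredoxins, and Tkt and Taldo1 belong to the pentose phosphate pathway. The call of Taldo1 was lost without HKO replicate 4, WT replicate 1 or WT replicate 2. In 10 of the 18 the HKO livers lay under all WT livers, as for 7.21% of all genes. A negative log2FC was found for 16 of the 18, against 48.4% of all genes, with a list median of -0.46, and for 15 with a median of -0.35 without HKO replicate 3.

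**Figure D5:**
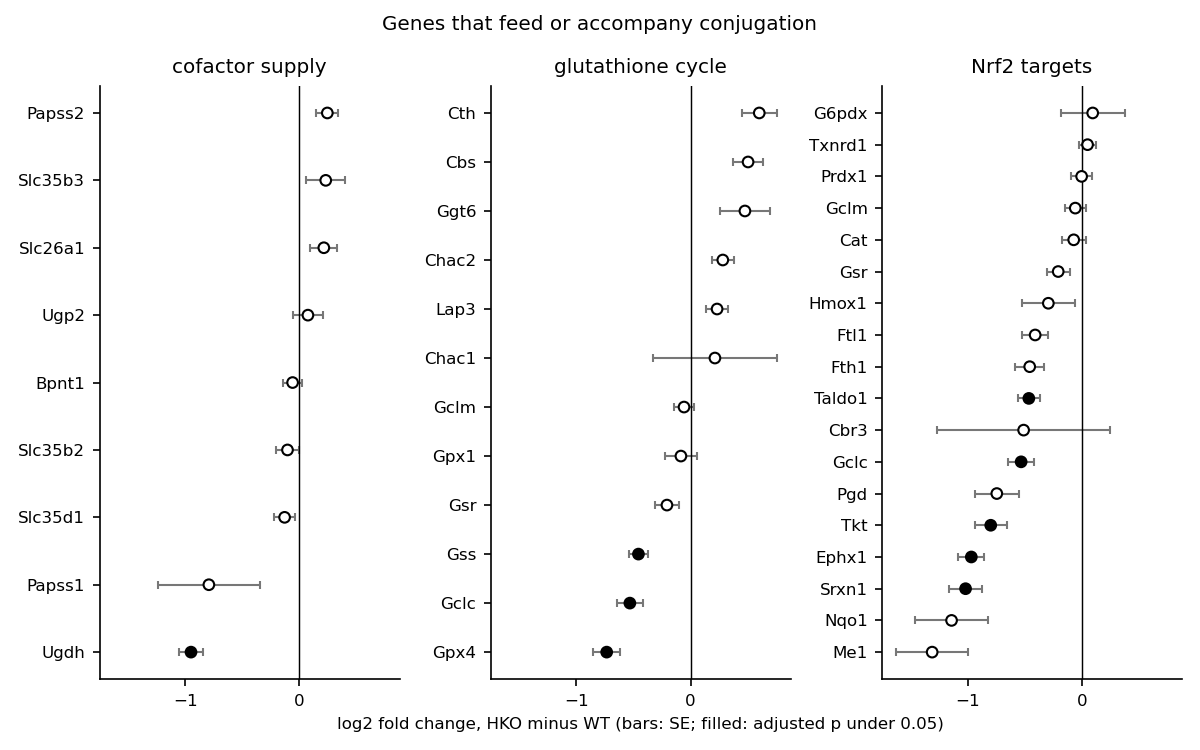
Log2FC (HKO minus WT, bars of 1 SE) of the tested genes of 3 lists, cofactor supply (9 genes), glutathione cycle (12) and Nrf2 targets (18), with filled points for an adjusted p under 0.05. All filled points lie under 0, Ugdh at -0.95, Gpx4 at -0.73 and Srxn1 at -1.02 among them, and Gclc stands in 2 lists.

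Of 19 regulators tested, 3 were called, where 5.03% of all genes were. Nfe2l2, which encodes Nrf2, was at -0.34 (SE 0.08, adjusted p 0.0334) and Ppara at -0.33 (SE 0.08, adjusted p 0.0358), both in edgeR. Hnf4a was at 0.36 (SE 0.09, adjusted p 0.0406 in edgeR). The call was lost in 7 of the 8 fits that left out a liver for each of these 3 genes, being kept for Nfe2l2 without WT replicate 4, for Ppara without HKO replicate 1 and for Hnf4a without HKO replicate 3. Of 11 index genes of xenobiotic and lipid receptors, 2 were called, where 5.03% of all genes were. Cyp1a2, the classic target of the aryl hydrocarbon receptor, rose by 1.79 on the log2 scale (SE 0.23, adjusted p 0.00491 in edgeR). Vnn1, a target of Ppara, fell by 2.02 on the log2 scale (SE 0.15, adjusted p 0.000259 in edgeR). Ahr itself was at 0.18 (adjusted p 0.392).

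The male-biased and female-biased liver genes had log2FC values of opposite sign, and most did not pass the test. All 16 male-biased genes had a positive log2FC with a median of 1.49, where 48.4% of all genes had a negative one. None of the 16 was called by edgeR, where 5.03% of all genes were. At an unadjusted p under 0.05 in edgeR there were 11, where 19.8% of all genes were. DESeq2 called 8 and limma-voom 5, where they called 7.67% and 4.86% of all genes. With HKO replicate 3, the liver high in Mup genes, left out, 15 of the 16 were positive with a median of 0.97. Of the 11 female-biased genes tested, 10 had a negative log2FC, against 48.4% of all genes, with a median of -1.46 (-1.09 without HKO replicate 3). Cyp2a4 was called lower, where 3.37% of all genes were, at -3.51 (SE 0.67, adjusted p 0.0349 in edgeR). That call was lost without WT replicate 1, 2 or 3 or HKO replicate 1, 3 or 4. Cyp2a4 was at 37.97, 22.1, 23.8 and 9.74 CPM in WT and 0.979, 4.12, 0.698 and 2.65 CPM in HKO livers, so that WT replicate 1 was highest and HKO replicate 3 lowest. Over the 47 conjugation genes tested, HKO replicate 3 was lowest for 22, against 14.2% of all genes. WT replicate 1 was highest for 12, against 13.4% of all genes. WT replicate 4, the lowest WT liver for Cyp2a4, was highest for 13, against 10.9% of all genes. The part of the sex-biased pattern in the differences of the conjugation genes was not tested.

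Pericentral and periportal hepatocyte lists showed 1 of 10 and 3 of 9 genes called, where 5.03% of all genes were. The pericentral gene was Cyp1a2. Of the periportal genes, Cps1 and Ass1 of the urea cycle were at 1.26 (SE 0.18, adjusted p 0.00433 in edgeR) and 0.80 (SE 0.17, adjusted p 0.0280), and Hsd17b13, a lipid droplet protein, was at -0.77 (SE 0.13, adjusted p 0.00914). The call of Ass1 was kept without HKO replicate 3 or WT replicate 4 and lost without any other liver. The stellate cell gene Col1a1 fell by 2.81 on the log2 scale (SE 0.39, adjusted p 0.00723 in edgeR). It was 1 of 6 markers of that cell type to be called, where 5.03% of all genes were. The summed level of the 6 was 323 to 434 CPM in WT and 274 to 396 CPM in HKO livers. None of the 6 macrophage, 6 endothelial, 4 red blood cell, 3 cholangiocyte and 1 lymphocyte markers tested was called by edgeR, DESeq2 or limma-voom. These called 5.03%, 7.67% and 4.86% of all genes. Of these markers, 0 had an unadjusted p under 0.05 in edgeR, where 19.8% of all genes did.

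The mature miR-33-5p (chr15:82198127-82198147, plus strand, RefSeq on GRCm38.p6) is shown with its seed, bases 2 to 8, in capitals, because matches to it in a 3'UTR are how a direct target would be read.
miR-33-5p: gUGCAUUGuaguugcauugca
For each gene, the longest of its annotated 3'UTRs was searched for CAATGCA and for AATGCAA on the transcript strand, overlapping matches counting as 1. Of the 47 tested members, all with a 3'UTR of at least 50 bases, 3 held a match (6.38%), where 17.6% of 11554 genes did. A short 3'UTR has fewer places for a match, and lengths were not matched, so the shares do not show that sites are scarce. Among the members, Gstp3 had 53 bases, Gsta1 106 and Ugt2b34 2972. The matches are shown in capitals.
Ugt2b34: tcaaggtcatCAATGCAAtcatcttca
Ugt2b35: agctcattgaCAATGCActacatgaat
Ugt2b37: agttcattgtCAATGCAccacatgaat
Their log2FC values were -0.09, -0.28 and 0.05, with no adjusted p under 0.05, and none of the 5 genes called held a match.

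Promoters from RefSeq (GRCm38.p6, 250 bases before to 50 after the start) were found for 53 of the 60 members and searched on both strands for 4 motifs. The antioxidant response element core TGACNNNGC, the site of Nrf2, occurred in 4 members (7.55%), Gsta3, Gstm5, Gstm7 and Mgst1, in 13.99% of all 27025 genes with a promoter and in 16.8% of the tested genes. Among the 42 tested members with a promoter the share was 9.52%. The xenobiotic response element core GCGTG, the site of the aryl hydrocarbon receptor, occurred in 12 members (22.6%) and in 35.2% of all genes. Of the tested members 26.2% held it, against 54.7% of tested genes. The STAT5 site TTCNNNGAA occurred in 6 members (11.3%) and in 9.55% of all genes, with 9.52% of tested members against 8.40% of tested genes, and the direct repeat DR1, which Ppara can bind, occurred in none. In Gstm5 the match to TGACNNNGC holds a match to GCGTG on the other strand. The DR1 motif, of 13 bases, occurred in only 0.0481% of all genes and 0.0504% of tested genes. Its absence from the 53 members therefore does not show that they lack such sites more than other genes. A match describes the letters only.

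The promoter ends of the Gsta1 and Gsta2 pair show the likeness of these copies, with GCGTG in capitals at or just before the start of each gene. The stretches shown are chr9:78230637-78230671 (plus strand) and chr9:78347146-78347182 (minus strand).
Gsta1: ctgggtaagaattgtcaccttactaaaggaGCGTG
Gsta2: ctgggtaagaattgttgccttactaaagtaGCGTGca
A TTCNNNGAA match stands further upstream in Gsta1, and Gsta2 held no such match in the window searched. The match is shown in capitals within the stretch chr9:78230477-78230545 (plus strand).
Gsta1: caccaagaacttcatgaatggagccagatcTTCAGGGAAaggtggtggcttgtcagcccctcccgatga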

How the data were processed

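The authors aligned reads with STAR and quantified them in Partek, per the labels' processing notes; versions and the genome build are not given in the sources used here. They deposited estimated counts per gene, before normalization, for 17810 genes in 8 livers. Of the deposited values 87.7% were whole numbers within 0.01, and 31 of the 60 members had a fractional value in some liver, as when a read that fits several genes is divided. Symbols matched RefSeq genes of GRCm38 for 17789 genes, of which 82.5% had the same start or end, so coordinates are given on that build. Per the labels, rRNA was depleted but the kit named is one for small RNA, and both 45 cycles and 75-base reads are given, so the library type and read length are uncertain. Shared words are given above at 75 bases. With words of 45 bases, the share found in another gene was 91.2% for Gsta1, 41.2% for Ugt2b38, 30.9% for Gstm3 and 0.233% for Gstm4. It was 0% for Sult1d1.

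Estimated counts were rounded and tested in edgeR 4.0.16 (R 4.3.3) with TMM scaling, the default expression filter (minimum count 10), robust quasi-likelihood fits and Benjamini-Hochberg adjustment over 12395 genes, at an adjusted p under 0.05. The SE is the absolute log2 fold change over the square root of F. Summed levels were described without a test. Also tried were limma-voom (limma 3.58.1), DESeq2 1.42.0, other scalings and filters, a block for the replicate number, an added fold limit of 1.5, each liver left out, and, chosen after seeing the data, edgeR's legacy quasi-likelihood method. On simulated counts for HKO against WT (12395 genes, 200 changed), edgeR recovered 80.8% of changes of 1 and 91.3% of changes of 2 on the log2 scale, and 7.34% of its calls were of unchanged genes. That share was 5.85% for limma-voom and 17.5% for DESeq2, so DESeq2 made more false calls there than its threshold of 0.05 allows. Genes called by DESeq2 and not by edgeR are to be read with that limit.

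Exon lengths, coding sequences and 3'UTRs came from GENCODE M21. Named genes were all members called, the most abundant member of each subfamily, Sult2a8, Ugt2a3 and Ugt2b1, members whose genotypes did not overlap with an absolute log2 fold change of at least 1, and called genes of the other lists. Other genes given singly, among them those that stood out in HKO replicates 2 and 3 and the neighbours in a cluster, were chosen after their values were seen. Members and lists were chosen with earlier results of these data known. Groups came from the labels. HKO and WT libraries carry separate runs of order numbers in the file's headers, so order and genotype cannot be told apart. The titles give each liver a number of its own, while the descriptions of all WT samples repeat one number, and neither says that the livers came from separate mice; p-values measure the spread between these samples, which may be technical. The floor of 3 counts covers counting error only, and the SE includes the spread between livers.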

Additional observations from a re-analysis of the deposited data

Results flagged for a closer look

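In a group of 4 livers, a liver was taken as far from the others when its gap to the nearest of them exceeded Dixon's 95% critical share of the group's range. Of 64 groups examined, 4 met this, where chance gives about 3. The groups were of tested genes named by the rule and of subfamily sums. Ugt2b38, Sult1e1, Gstp2 and Ugt2b37, which were highest in HKO replicate 3, were not among them. The count therefore does not cover all members. Gstz1 was at 892 CPM in WT replicate 4, where the other WT livers lay at 779 to 782 CPM, and at 843 CPM in HKO replicate 2, against 770 to 781 CPM in the other HKO livers. Sult1a1 was at 177 CPM in HKO replicate 3, against 452 to 509 CPM in the other HKO livers. The summed UGT1A level was 865 CPM in HKO replicate 3, against 1292 to 1345 CPM in the other HKO livers.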

How the results depend on the processing

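The 5 conjugation genes called became 10 with DESeq2 (4 higher and 6 lower, where 7.67% of all genes were called) and 3 without the expression filter (1 higher). Leaving out a liver gave 0 to 7 called (0 to 4 higher, 0 to 4 lower), 0 without WT replicate 1 or 2, 1 without HKO replicate 4 and 7 without WT replicate 4. A fit with fewer livers can call fewer genes over the whole table. Of all genes, 3.78% were called without HKO replicate 3, against 5.03% with all livers. The shares without each other liver are not given, so those counts cannot be set against all genes. Over the pathway, regulator and sex-biased lists together, 17 of 136 genes were called, 44 with DESeq2, 30 with limma-voom, 11 with a fold change above 1.5 added and 10 to 26 with a liver left out. Of all genes, edgeR called 5.03%, DESeq2 7.67% and limma-voom 4.86%, and 2.96% were called with that fold change added. The replicate numbers did not pair the livers (correlations of same-numbered deviations -0.15 to 0.01, and no liver correlated best with its own number). With the replicate block 5 conjugation genes and 22 list genes were called; Ugt1a9 and Ugt2b1 were not (adjusted p 0.0726 and 0.158 in edgeR), and Mgst3 and Sult2a8 were (0.0275 and 0.0403). The 5 called genes kept their direction in every alternative run and their call in 45 of 49 that kept all livers, but in 15 of 40 that left one out. In all, 5 of the 47 members took the other sign without HKO replicate 3, Gsta4, Gstt3, Sult1c2, Ugt2b37 and Ugt2b38. Among genes named by the rule, small log2 fold changes did so when a liver was left out: Gsto1 without HKO replicate 2 (-0.010, over a range of -0.010 to 0.26), Gstz1 without WT replicate 4 (0.022, from -0.059 to 0.022), Sult5a1 without WT replicate 4 (0.0096, from -0.75 to 0.0096), and Ugt3a2 without HKO replicates 1 and 2 (0.011 and 0.017) and WT replicates 2 and 4 (0.013 and 0.050, over a range of -0.044 to 0.050). The GST zeta sum, lower by 15.8 CPM in HKO, gave -62.9 CPM with total count scaling and 12.0 CPM without WT replicate 4. The UGT2B sum (186 CPM higher) gave -77.1 CPM with that scaling and -20.1 CPM without HKO replicate 3, and the UGT3A sum (15.8 CPM lower) -59.4 CPM with that scaling and 15.4 CPM without WT replicate 4. The small GST omega and SULT5 differences also took the other sign with a liver left out. The cause was not tested. Genes at or under about 3 counts, such as Gsta1 in HKO replicate 3, are at the limit of this depth.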
